A study of Homo sapiens with 8 samples.

Results

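Cell cycle and DNA replication genes were followed in hepatoma cells in which KLHL23, a gene of the Kelch-like family, had been silenced. The set holds 50 of the 19775 genes measured. They run from the cyclins and kinases that start a cycle, through the replication machinery, to the motors and kinetochore proteins of mitosis, and all 50 were found on the arrays. Each gene was read from the probe sets that the platform annotation pairs with its symbol alone, and the probe set with the highest mean over the 8 arrays stood for it.

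The arrays form 4 groups of 2, named by line and hairpin: Hep-3B-shKLHL23, Hep-3B-shLuc, Huh7-shKLHL23 and Huh7-shLuc. Hep-3B and Huh7 are established human hepatoma lines, grown with 10% serum. A lentivirus at a multiplicity of infection of 2 delivered a short hairpin RNA against KLHL23 or, in the controls, against luciferase (an insect gene with no human counterpart). Transduced cells were selected with puromycin from 48 hours on. All 4 groups are therefore transduced and drug-selected, no untransduced cells were analysed here, and the labels name a single KLHL23 hairpin, so its effects on other transcripts cannot be told apart from those of KLHL23 loss. The labels number the replicates of each group 1 and 3 and do not say that they were separate cultures, so a p-value here reflects the variation among these samples alone, and that variation may be technical. Values are log2 expression from RMA (robust multi-array average), which forces the arrays to a common distribution. A difference of 1 is thus a 2-fold change.

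A cell that enters a new division cycle activates cyclin-dependent kinases. These release E2F transcription factors, which switch on genes for licensing replication origins and copying DNA, and later B-MYB and FOXM1, acting with the MuvB complex, switch on the mitotic genes. Liver cells rarely divide, whereas hepatoma cells cycle continuously, and transcripts of these genes are widely read as a measure of how many cells are cycling. In RNA from a whole culture, fewer cells in a given phase and less transcript per cell cannot be told apart.

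The expression of many of these genes is set by short promoter elements, which the member rule did not use. RefSeq promoter windows (GRCh38.p14, the 250 bases before each annotated start) were found for 41 of the 50 members, with 59 windows in all. Both strands were searched for 3 elements. The E2F element was read as TTTGGCG, or with other central letters as TTTCGCG, as well as the spelling TTTCCCG, together with the variant TTTGCCG. The cell cycle genes homology region, CHR, was read as TTTGAA, or in other forms as TTCGAA, together with the variant TTTAAA. The third element was the CCAAT box, named for its letters. Matches may overlap each other, as 2 E2F spellings do in MCM6. The windows of the 5 members called changed in Huh7 are shown here because the knockdown results turn on them, with every match in capitals. They lie at chr16:88803539-88803788 on the plus strand for CDT1, chr11:125626106-125626355 on the plus strand for CHEK1, chr5:138178862-138179111 on the plus strand for KIF20A, chr20:5126623-5126872 on the minus strand for PCNA and chr15:90994536-90994785 on the minus strand for PRC1. CHEK1 and PCNA have several annotated starts, and the window with the most matches is given. That of CHEK1 lies inside the annotated gene, downstream of another start.
CDT1: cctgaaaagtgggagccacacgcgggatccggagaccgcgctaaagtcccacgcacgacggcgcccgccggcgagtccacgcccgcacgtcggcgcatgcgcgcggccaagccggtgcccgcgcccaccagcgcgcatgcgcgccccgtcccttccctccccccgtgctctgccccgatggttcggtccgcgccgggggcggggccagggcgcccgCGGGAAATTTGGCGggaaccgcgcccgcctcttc
CHEK1: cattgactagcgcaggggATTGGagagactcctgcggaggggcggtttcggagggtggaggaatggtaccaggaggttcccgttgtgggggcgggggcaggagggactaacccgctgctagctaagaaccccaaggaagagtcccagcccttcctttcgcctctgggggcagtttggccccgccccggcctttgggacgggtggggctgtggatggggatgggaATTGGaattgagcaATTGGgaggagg
KIF20A: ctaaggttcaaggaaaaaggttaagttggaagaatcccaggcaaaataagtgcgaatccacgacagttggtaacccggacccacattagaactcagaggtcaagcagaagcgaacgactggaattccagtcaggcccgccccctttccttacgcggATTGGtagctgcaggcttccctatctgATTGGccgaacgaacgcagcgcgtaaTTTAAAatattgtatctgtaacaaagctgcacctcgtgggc
PCNA: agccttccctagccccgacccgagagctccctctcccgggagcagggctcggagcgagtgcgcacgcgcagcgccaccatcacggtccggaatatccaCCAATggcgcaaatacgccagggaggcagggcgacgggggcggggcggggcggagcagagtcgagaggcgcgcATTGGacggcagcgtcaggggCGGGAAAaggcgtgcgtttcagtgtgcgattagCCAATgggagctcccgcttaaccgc
PRC1: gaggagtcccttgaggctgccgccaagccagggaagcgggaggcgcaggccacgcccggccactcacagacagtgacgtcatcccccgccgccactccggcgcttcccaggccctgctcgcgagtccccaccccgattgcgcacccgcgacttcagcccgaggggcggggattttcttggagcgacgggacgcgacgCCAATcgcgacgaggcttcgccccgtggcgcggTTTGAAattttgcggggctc

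The 5 windows differ in which elements they hold. CDT1 held E2F spellings alone, as CGGGAAA from 34 to 28 and TTTGGCG from 27 to 21 bases before the start. PRC1 held the CHR spelling TTTGAA from 20 to 15 bases before the start with a CCAAT box from 53 to 49, the pairing seen in many mitotic promoters. KIF20A held TTTAAA from 41 to 36 bases before the start and 2 CCAAT boxes, PCNA held 1 E2F spelling and 3 CCAAT boxes, and CHEK1 held 3 CCAAT boxes in the window shown. A match is a description of the letters and not evidence that a factor binds there.

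Over all members, 32.2% of the 59 windows held an E2F spelling, against 7.33% of the 35116 windows of all genes. A CHR spelling was found in 42.4% of member windows, against 22.8% of all windows, and a CCAAT box in 76.3%, against 32%. The elements were spread unevenly over the roles, without a clean division. Counted by gene, 43.9% of members held an E2F spelling, against 8.86% of all genes with a window. For a CHR spelling the shares were 56.1% and 26.5%. An E2F spelling was found in 8 of the 9 origin licensing and firing genes that have a window, 3 of 4 G1 to S genes, 1 of 7 kinetochore, motor and cytokinesis genes and 0 of 4 spindle checkpoint genes. A CHR spelling was found in 7 of 7 kinetochore, motor and cytokinesis genes, both chromosome structure genes and 6 of 9 G2 and mitotic entry genes. It was found in 2 of 9 licensing genes, 1 of 4 G1 to S genes and 2 of 4 spindle checkpoint genes. The DNA synthesis genes held each of these 2 elements in 3 of 6. An E2F spelling was also in 1 of 2 chromosome structure genes and 2 of 9 G2 and mitotic entry genes.

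The arrays themselves were checked first. KLHL23, the targeted gene, was at 7.21 and 6.15 in Hep-3B-shKLHL23, against 7.81 and 7.84 in Hep-3B-shLuc, and at 5.78 and 5.88 in Huh7-shKLHL23, against 7.89 and 7.87 in Huh7-shLuc. The knockdown was thus uneven in Hep-3B (-1.14, SE 0.27, n = 2 per group, limma adjusted p = 0.0833) and even in Huh7 (-2.05, SE 0.27, limma adjusted p = 0.00363). Of 10 hepatocyte markers 9 were measured, and they lay between 7.78 and 13.8, so liver transcripts were present in both lines. Their summed log2 level was 112.7 to 113.1 in Hep-3B-shKLHL23 against 110.7 to 110.9 in Hep-3B-shLuc, and 107.3 to 111.2 in Huh7-shKLHL23 against 107.5 to 107.9 in Huh7-shLuc. Of these markers TTR passed the test in each line. Of the endothelial, stellate cell and leukocyte markers measured (5, 5 and 4), 0 were called in either knockdown comparison (limma, with at most 1 of a list below an unadjusted p of 0.05). The 3' minus 5' difference of the ACTB control probe sets, a measure of RNA degradation, was 0.74 and 0.75 in Hep-3B-shKLHL23, against 0.44 and 0.54 in Hep-3B-shLuc, and 0.52 and 0.55 in Huh7-shKLHL23, against 0.87 and 0.83 in Huh7-shLuc. It moved with the knockdown in opposite directions in the 2 lines, and its part in the results was not tested. No member was below an array's median over all probe sets on any array, and the members' values lay between 5.62 and 11.8, where array medians were 4.56 to 4.60.

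In Hep-3B no cycle gene passed the test after silencing of KLHL23. Of the 50 members 0 were called changed (limma, adjusted p under 0.05 over all genes), where 0.693% of all genes were called. Below an unadjusted p of 0.05 were 6 of the 50 members, a smaller share than the 3491 of all 19775 genes. These 6 were CCNE1, CDC25A, GMNN, PCNA and KIF20A on the higher side and CCNB2 on the lower side. The median difference of the members was -0.08, against 0.02 over all genes, with a range from -0.33 to 0.46. All 50 of the 95% intervals lay within 1 log2 unit of 0, that is, within a 2-fold change either way. The arrays of shKLHL23 and shLuc did not overlap for 39 members, 27 of them lower and 12 higher, where 53% of all genes did not overlap (23.5% lower and 29.4% higher). Leaving out Hep-3B-shKLHL23 replicate 1, the array with the weaker knockdown, gave a count of 1 (CDC25A), or 2% of the members, where 5.74% of all genes were then called.

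In Huh7 the knockdown was followed by changes in 5 members, 3 lower and 2 higher. PRC1, CHEK1 and CDT1 fell, and KIF20A and PCNA rose. The share of members called, 10%, was below the 13.5% of all genes called in this comparison (5.75% higher and 7.73% lower). The members' median difference was -0.11, against -0.000315 over all genes. Below an unadjusted p of 0.05 were 12 of the 50 members, a smaller share than the 5441 of all 19775 genes. No difference reached 1 log2 unit, and the range was from -0.70 for CENPE to 0.50 for KIF20A. The 95% intervals of 48 members lay within 1 log2 unit of 0, the exceptions being PRC1 and CENPE. The arrays did not overlap for 18 members, 12 lower and 6 higher, where 53.7% of all genes did not overlap (27.2% lower and 26.5% higher).

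The Huh7 count rests on few arrays. It was 0 without Huh7-shLuc replicate 1 or replicate 3, where 2.82% and 2.76% of all genes were called, and 2 (CDT1 and CHEK1) without either Hep-3B-shLuc array, where 9.27% of all genes were called. It was 7, or 14%, without Huh7-shKLHL23 replicate 1, where 7.32% of all genes were called, and 19, or 38%, without Huh7-shKLHL23 replicate 3, where 15.3% were. Of the 7 members called without replicate 1, 6 were higher, and all 19 called without replicate 3 were lower. The 2 knockdown arrays of Huh7 thus gave different pictures of the cycle, and their values are set out below. Relative to the control mean of the line, the members' median was -0.30 on replicate 1 and 0.08 on replicate 3. With the lines fitted separately the Huh7 count was 1, CHEK1.

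**Figure D1:**
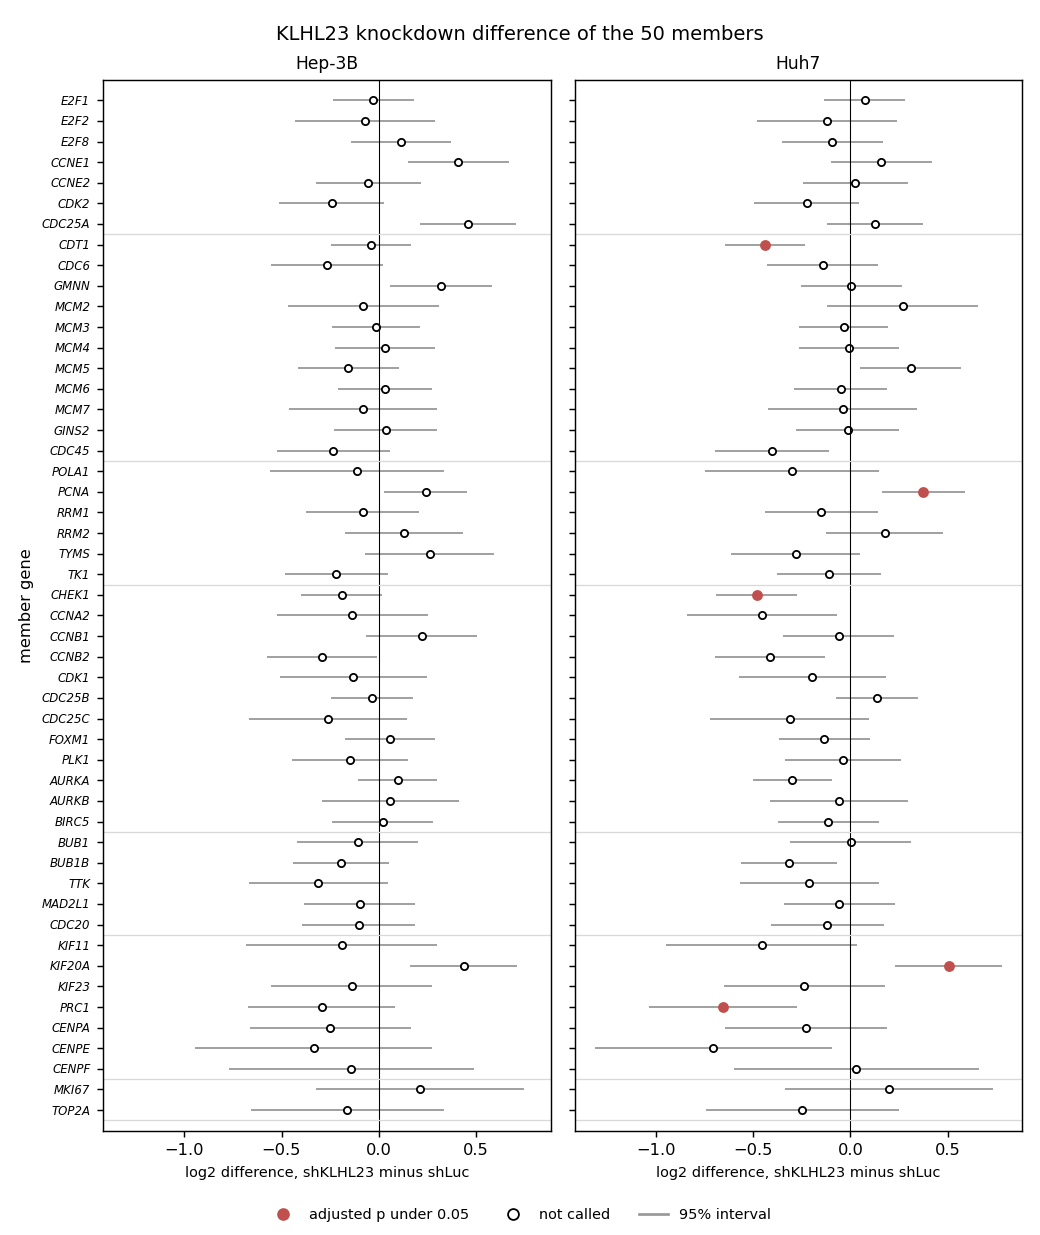
Log2 difference, shKLHL23 minus shLuc, of each of the 50 members in Hep-3B (left) and Huh7 (right), ordered by role, with 95% intervals from limma on 2 arrays per group. Filled points mark the 5 members called in Huh7, and in Hep-3B the differences lie between -0.33 and 0.46 with 0 called.

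The 7 genes that control entry into S phase lay between -0.22 and 0.16 in Huh7, and included the member furthest above control in Hep-3B. None was called within a line. CDC25A, a phosphatase that activates CDK2, was at 7.77 and 8.03 in Hep-3B-shKLHL23, against 7.48 and 7.41 in Hep-3B-shLuc, and at 8.19 and 8.26 in Huh7-shKLHL23, against 8.06 and 8.15 in Huh7-shLuc. The knockdown arrays were above the control arrays in each line, narrowly so in Huh7. Its difference was 0.46 (SE 0.11, limma adjusted p = 0.0829) in Hep-3B and 0.13 (SE 0.11, limma adjusted p = 0.523) in Huh7. Another probe set of CDC25A, with a mean of 5.57, gave -0.14 in Hep-3B and 0.06 in Huh7. The remaining one, with a mean of 5.29, gave 0.63 and 0.35, and neither was called within a line.

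CCNE1, which encodes cyclin E1, the partner of CDK2 at the start of S phase, was at 8.94 and 9.18 in Hep-3B-shKLHL23, against 8.63 and 8.67 in Hep-3B-shLuc. In Huh7 it was at 7.91 and 8.13 with shKLHL23, against 7.88 and 7.85 with shLuc. Knockdown arrays were again the higher ones in each line, with differences of 0.41 in Hep-3B and 0.16 in Huh7. CDK2 itself was at 7.91 and 7.79 in Hep-3B-shKLHL23, against 8.06 and 8.12 in Hep-3B-shLuc, and at 8.48 and 8.81 in Huh7-shKLHL23, against 8.88 and 8.85 in Huh7-shLuc. It lay below control on every knockdown array, at -0.24 (SE 0.12) in Hep-3B and -0.22 (SE 0.12) in Huh7, and was not called (limma adjusted p = 0.339 and 0.271). By the probe sets that stood for them, the E2F factors E2F1, E2F2 and E2F8 and the other cyclin E gene, CCNE2, had differences between -0.12 and 0.11 in the 2 lines. Another probe set of CCNE2, with a mean of 5.85, was at -0.46 in Hep-3B and 0.14 in Huh7. One of E2F2, with a mean of 4.87, was at -0.26 and -0.13, and neither was called within a line.

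Among the 11 genes that license and fire origins, CDT1 was the single one called within a line. CDT1 loads the MCM helicase onto origins and was at 8.62 and 8.68 in Huh7-shKLHL23, against 9.13 and 9.05 in Huh7-shLuc. Both knockdown arrays were well below both control arrays, and the replicates were close. CDT1 fell 1.36-fold in Huh7 (-0.44, SE 0.09, limma adjusted p = 0.0166). In Hep-3B it was at 8.87 and 8.75 with shKLHL23, against 8.86 and 8.85 with shLuc, and the arrays overlapped (-0.04, SE 0.09). The test of the difference between the lines gave -0.40 (SE 0.13, limma adjusted p = 0.192). CDT1 was not called in Huh7 without Huh7-shKLHL23 replicate 1 or without either Huh7-shLuc array, when its difference lay between -0.48 and -0.40. Its other probe set was at -0.43 in Huh7 and was not called (limma adjusted p = 0.206 over all probe sets).

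GMNN encodes geminin, the protein that binds and inhibits CDT1. It was at 10.23 and 10.44 in Hep-3B-shKLHL23, against 10.01 and 10.02 in Hep-3B-shLuc, and at 9.91 and 10.16 in Huh7-shKLHL23, on either side of 10.02 and 10.04 in Huh7-shLuc. Its difference was 0.32 (SE 0.11, limma adjusted p = 0.197) in Hep-3B and 0.01 (SE 0.11) in Huh7. CDC45, part of the active helicase, was at 7.15 and 6.97 in Hep-3B-shKLHL23, against 7.35 and 7.23 in Hep-3B-shLuc, and at 7.33 and 7.61 in Huh7-shKLHL23, against 7.78 and 7.97 in Huh7-shLuc. Every knockdown array was below every control array of its line. The 6 subunits of the MCM helicase were not called in either line, with differences from -0.16 to 0.03 in Hep-3B and from -0.05 to 0.31 in Huh7, and MCM5 was the furthest from 0 in each (-0.16 in Hep-3B and 0.31 in Huh7).

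The probe set that stood for MCM4 gave 0.03 in Hep-3B and -0.01 in Huh7. Another of its 5 probe sets gave -0.49 (SE 0.10) in Hep-3B and 0.40 (SE 0.10, limma adjusted p = 0.0351 over all probe sets) in Huh7, and for it the lines differed by 0.90 (SE 0.14, limma adjusted p = 0.0292). It was 1 of the 107 probe sets of the members called in that test, where 0.933% of all probe sets were called, a share near that of the members.

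Of the 6 genes of DNA synthesis and nucleotide supply, PCNA was called. PCNA, the sliding clamp that holds DNA polymerases on their template, was at 11.63 and 11.79 in Huh7-shKLHL23, against 11.37 and 11.31 in Huh7-shLuc. In Hep-3B it was at 11.74 and 11.83 with shKLHL23, against 11.57 and 11.53 with shLuc. In each line both knockdown arrays were above both control arrays. PCNA rose 1.30-fold in Huh7 (0.37, SE 0.09, limma adjusted p = 0.0333) and was at 0.24 in Hep-3B (SE 0.09, limma adjusted p = 0.233). In Huh7 it was not called without Huh7-shKLHL23 replicate 3 or without any 1 of the 4 shLuc arrays, and in those fits its difference lay between 0.30 and 0.40. Adjusted over all probe sets, it was not called in Huh7 (limma adjusted p = 0.0549).

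TYMS, which makes the thymidine nucleotide of DNA, was at 11.16 and 11.28 in Hep-3B-shKLHL23, against 10.97 and 10.94 in Hep-3B-shLuc, and at 10.71 and 11.19 in Huh7-shKLHL23, against 11.22 and 11.24 in Huh7-shLuc. The knockdown arrays were the higher ones in Hep-3B and the lower ones in Huh7. The differences were 0.26 (SE 0.15) and -0.28 (SE 0.15), and the lines did not differ by the test of that contrast (-0.54, SE 0.21, limma adjusted p = 0.263). By the probe sets that stood for them, the polymerase subunit POLA1, the ribonucleotide reductase genes RRM1 and RRM2 and the thymidine kinase TK1 had differences between -0.22 and 0.13 in Hep-3B and between -0.30 and 0.17 in Huh7. Another probe set of RRM1, with a mean of 9.04, was at -0.29 in Hep-3B and -0.22 in Huh7, and was not called within a line.

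Among the 12 genes of the G2 checkpoint and mitotic entry, CHEK1 fell in Huh7. CHEK1 encodes a kinase that halts the cycle when replication stalls. It was at 7.14 and 7.21 in Huh7-shKLHL23, against 7.68 and 7.64 in Huh7-shLuc, and at 7.68 and 7.53 in Hep-3B-shKLHL23, against 7.79 and 7.80 in Hep-3B-shLuc. All 4 knockdown arrays were below the controls of their line, and the Huh7 knockdown arrays were the lowest of the 8. The fall in Huh7 was 1.40-fold (-0.48, SE 0.09, limma adjusted p = 0.0125), against -0.19 (SE 0.09, limma adjusted p = 0.33) in Hep-3B. CHEK1 was called in Huh7 whichever array was left out except for the 2 Huh7-shLuc arrays (limma adjusted p of at most 0.0907). Of its 3 other probe sets, a pair gave -0.72 and -0.71 in Huh7 (limma adjusted p = 0.0689 and 0.0103 over all probe sets) and another gave -0.05.

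CCNB2, a B-type cyclin of mitosis, was at 9.52 and 9.40 in Hep-3B-shKLHL23, against 9.75 and 9.76 in Hep-3B-shLuc, and at 9.37 and 9.73 in Huh7-shKLHL23, against 9.93 and 10.0 in Huh7-shLuc. Every knockdown array was below its controls, with differences of -0.29 (SE 0.12) in Hep-3B and -0.41 (SE 0.12, limma adjusted p = 0.0611) in Huh7. Its companion CCNB1 was at 0.22 (SE 0.13) in Hep-3B and -0.06 (SE 0.13) in Huh7, so the 2 mitotic cyclins were not on the same side in Hep-3B. In Huh7, 11 of the 12 genes of this role had a negative difference, CDC25B being the exception at 0.14, and CHEK1 was the single one called.

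The 5 genes of the spindle checkpoint and anaphase were not called in either line. BUB1B, which keeps the anaphase-promoting complex inactive until chromosomes are attached, was at 9.14 and 8.99 in Hep-3B-shKLHL23, against 9.26 and 9.25 in Hep-3B-shLuc. In Huh7 it was at 8.77 and 9.02 with shKLHL23, against 9.23 and 9.19 with shLuc. Knockdown arrays were the lower ones in each line, by -0.19 (SE 0.11) in Hep-3B and -0.32 (SE 0.11, limma adjusted p = 0.0934) in Huh7.

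TTK, a kinase that starts the checkpoint signal, was at 7.84 and 7.48 in Hep-3B-shKLHL23, against 7.95 and 7.99 in Hep-3B-shLuc, and at 7.61 and 8.04 in Huh7-shKLHL23, against 8.0 and 8.07 in Huh7-shLuc. Its knockdown replicates lay far apart in both lines, and the differences were -0.31 (SE 0.16) and -0.21 (SE 0.16). By the probe sets that stood for them, BUB1, MAD2L1 and CDC20 lay between -0.12 and 0.00 in the 2 lines. Other probe sets of MAD2L1 were at -0.44 in Hep-3B and -0.17 in Huh7 (mean 9.44) and at 0.10 and 0.09 (mean 6.28). A probe set of BUB1 with a mean of 7.56 was at -0.37 in Hep-3B and 0.003 in Huh7. None of these was called within a line. Another probe set of BUB1, with a mean of 3.31 that is below the array medians, was at 0.78 in Huh7 (limma adjusted p = 0.00834 over all probe sets).

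The 7 genes of the kinetochore, motors and cytokinesis held both the largest fall and the largest rise among the members called in Huh7. KIF20A encodes a kinesin motor of the central spindle. It was at 8.81 and 9.11 in Huh7-shKLHL23, against 8.44 and 8.47 in Huh7-shLuc, and at 8.36 and 8.58 in Hep-3B-shKLHL23, against 8.04 and 8.03 in Hep-3B-shLuc. Knockdown arrays were above control arrays without overlap in each line. KIF20A rose 1.42-fold in Huh7 (0.50, SE 0.12, limma adjusted p = 0.0279) and was at 0.44 in Hep-3B (SE 0.12, limma adjusted p = 0.113). In Huh7 it was not called without Huh7-shKLHL23 replicate 3 or without any 1 of the 4 shLuc arrays, and in those fits its difference lay between 0.36 and 0.52.

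PRC1 encodes the protein that bundles the microtubules of the same central spindle. It was at 9.30 and 9.85 in Huh7-shKLHL23, against 10.15 and 10.30 in Huh7-shLuc, and at 9.69 and 9.51 in Hep-3B-shKLHL23, against 9.94 and 9.85 in Hep-3B-shLuc. Its knockdown arrays were below the control arrays without overlap in each line, but the gap between the Huh7 knockdown replicates was wide. PRC1 fell 1.58-fold in Huh7 (-0.66, SE 0.17, limma adjusted p = 0.0343) and was at -0.29 in Hep-3B (SE 0.17, limma adjusted p = 0.417). Without Huh7-shKLHL23 replicate 1 it was at -0.38 and was not called, without replicate 3 it was at -0.93, and it was also not called without any 1 of the 4 shLuc arrays.

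CENPE, a kinesin that moves chromosomes to the spindle equator, had the most negative difference of all members in Huh7 and was not called. It was at 5.62 and 6.66 in Huh7-shKLHL23, against 6.80 and 6.89 in Huh7-shLuc, and at 6.75 and 6.62 in Hep-3B-shKLHL23, against 7.0 and 7.03 in Hep-3B-shLuc. Knockdown arrays were below their controls in each line, and replicate 1 of Huh7-shKLHL23 was far below the other 7 arrays. The differences were -0.70 (SE 0.27, limma adjusted p = 0.126) in Huh7 and -0.33 (SE 0.27) in Hep-3B.

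The 2 chromosome structure genes are the ones most used as markers of dividing cells, and neither was called. MKI67, which codes for the Ki-67 protein that coats mitotic chromosomes, was at 8.64 and 8.75 in Hep-3B-shKLHL23, against 8.47 and 8.51 in Hep-3B-shLuc. In Huh7 it was at 8.11 and 9.02 with shKLHL23, against 8.34 and 8.40 with shLuc. The Hep-3B knockdown arrays were both above their controls, while those of Huh7 lay on opposite sides of theirs. The differences were 0.21 (SE 0.23) in Hep-3B and 0.20 (SE 0.23) in Huh7. All 4 probe sets of MKI67 were positive in each line, from 0.21 to 0.42 in Hep-3B and from 0.20 to 0.47 in Huh7, with none called within a line. Over both lines 1 of the 4 was called higher (0.45, SE 0.12, limma adjusted p = 0.0427 over all probe sets).

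TOP2A, the topoisomerase that untangles sister chromosomes, was at 10.33 and 10.14 in Hep-3B-shKLHL23, against 10.34 and 10.45 in Hep-3B-shLuc. In Huh7 it was at 9.34 and 10.15 with shKLHL23, against 9.98 and 10.01 with shLuc. As for MKI67, the Huh7 knockdown arrays lay on opposite sides of the controls. The differences were -0.16 (SE 0.22) in Hep-3B and -0.25 (SE 0.22) in Huh7. By the probe sets that stood for them, the 2 proliferation markers thus had opposite signs in each line, and none passed the test. Another probe set of TOP2A, with a mean of 9.80, was at -0.22 in Hep-3B and -0.03 in Huh7. The remaining one, with a mean of 3.75 that is below the array medians, was at 0.36 and 0.74. It was called higher over both lines (0.55, SE 0.15, limma adjusted p = 0.0452 over all probe sets).

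**Figure D2:**
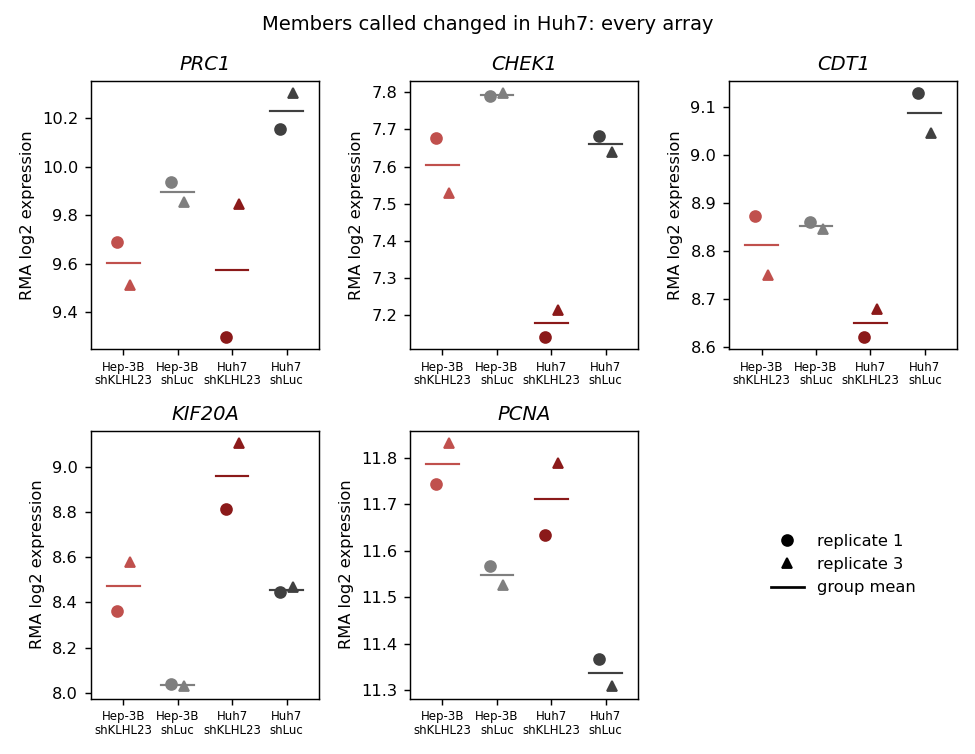
RMA log2 expression on each of the 8 arrays for the 5 members called changed in Huh7, with replicate 1 as circles, replicate 3 as triangles and group means as bars. Each panel has its own vertical axis, and in Huh7 the shKLHL23 arrays of PRC1, CHEK1 and CDT1 lie below both shLuc arrays and those of KIF20A and PCNA above them.

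Averaging the 2 lines' differences gave 9 members called, 4 higher and 5 lower, or 18% of the members, where 15.6% of all genes were called (7.6% higher and 8.02% lower). This average uses the same arrays as the comparisons within each line. The members that rose were KIF20A (0.47, SE 0.09, limma adjusted p = 0.00974), PCNA (0.31, SE 0.07, limma adjusted p = 0.0175), CDC25A (0.29, SE 0.08, limma adjusted p = 0.0349) and CCNE1 (0.28, SE 0.08, limma adjusted p = 0.046). The members that fell were CHEK1 (-0.34, SE 0.06, limma adjusted p = 0.0117), PRC1 (-0.48, SE 0.12, limma adjusted p = 0.0284), CCNB2 (-0.35, SE 0.09, limma adjusted p = 0.0288), CDT1 (-0.24, SE 0.06, limma adjusted p = 0.0377) and CDC45 (-0.32, SE 0.09, limma adjusted p = 0.0464). With the mean of each gene's probe sets, CDC25A, CCNE1 and CCNB2 were not called over both lines, while BUB1B was. Other probe sets of CDC25A, with means of 5.57 and 5.29, gave -0.04 and 0.49 over both lines, neither called. Those of CCNE1 and CCNB2 have means below the array medians. KIF20A was the single member still called whichever array was left out. The count was 1 without Hep-3B-shLuc replicate 3 or Huh7-shLuc replicate 1, where 5.91% and 6.64% of all genes were called. It was 2 without Hep-3B-shKLHL23 replicate 3, Hep-3B-shLuc replicate 1 or Huh7-shLuc replicate 3, where 7.71%, 7.30% and 7.05% were, and 23, or 46%, without Huh7-shKLHL23 replicate 3, where 19.1% were.

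For 13 members the knockdown arrays lay on the same side of the controls without overlap in both lines. CCNE1, CDC25A, PCNA and KIF20A were higher, where 12.4% of all genes were higher in this way, and CDK2, CDC45, CHEK1, CCNA2, CCNB2, BUB1B, KIF11, PRC1 and CENPE were lower, where 11.7% of all genes were lower. The sign was the same in both lines for 33 members, negative for 26 and positive for 7. For MCM5, TYMS, CDC25B and AURKA the knockdown arrays were clear of the controls in both lines but on opposite sides. These 4 are 8% of the members, and 8.30% of all genes were placed in this way.

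The test of the difference between the lines called 0 of the 50 members (limma), where 1.26% of all genes were called. The 4 members below an unadjusted p of 0.05 were AURKA (-0.40), CDT1 (-0.40), MCM5 (0.47) and TYMS (-0.54), and the smallest limma adjusted p was 0.185, for AURKA. Of all 19775 genes 2915 were below that unadjusted p, a larger share than among the members. The direction of each value is the Huh7 knockdown difference minus that of Hep-3B. Without Huh7-shKLHL23 replicate 3 the count was 2 (CENPE and TYMS), or 4%, where 2.63% of all genes were called.

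The 2 Huh7-shKLHL23 arrays differed in nearly the whole cycle programme. Each of the 50 members was higher in replicate 3 than in replicate 1, by a median of 0.34 and by 0.06 to 1.08, while 45.7% of all genes were higher in replicate 3, with a median of -0.02. In the other groups replicate 3 was the higher array for 26 members in Hep-3B-shKLHL23, 34 in Huh7-shLuc and 21 in Hep-3B-shLuc, with medians of 0.01, 0.03 and -0.01. The gap was at least 0.5 for 14 members in Huh7-shKLHL23 and for 0 in each of the other 3 groups. In Huh7-shKLHL23, 19 members exceeded the 95th percentile of all genes, 0.41, and in each of the other groups 0 members exceeded their group's percentile.

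The gap was widest in genes of mitosis. CENPF, an outer kinetochore protein, was at 8.19 and 9.27 in Huh7-shKLHL23, against 8.68 and 8.73 in Huh7-shLuc, a gap of 1.08 between knockdown replicates. The gap was 1.04 for CENPE, 0.90 for MKI67, 0.81 for TOP2A, 0.80 for KIF11, the motor that separates the spindle poles, and 0.73 for POLA1. By role the median gap was 0.86 for the chromosome structure genes, 0.64 for the kinetochore, motor and cytokinesis genes, 0.40 for DNA synthesis and for the spindle checkpoint, 0.34 for G2 and mitotic entry, 0.31 for G1 to S control and 0.28 for origin licensing. The smallest gaps were those of CDT1 (0.06), CDC25A and CHEK1 (0.07 each), so that CDT1 and CHEK1, called lower in Huh7, were also among the members on which the replicates were closest.

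Against the Huh7 controls, replicate 1 was mostly below, while replicate 3 was mixed, more often above than below. Replicate 1 was below both Huh7-shLuc arrays for 43 members and above both for 6. Replicate 3 was above both for 34 members and below both for 12, and for 27 members the knockdown replicates lay on opposite sides of both controls. The median of the members, relative to the control mean of the line, was -0.30 on replicate 1 and 0.08 on replicate 3, against -0.06 and -0.10 on the Hep-3B-shKLHL23 arrays. For 39 members the gap between the Huh7 knockdown replicates was larger than the difference between knockdown and control, and in Hep-3B this held for 16. None of these counts was taken over all genes, so they do not show whether the members differ from other genes in this.

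With replicate 1 of Huh7-shKLHL23 left out, the members called in Huh7 were CENPF, KIF20A, MCM2, MCM5, MKI67 and PCNA as higher and CHEK1 as lower (14% of members, against 7.32% of all genes). With replicate 3 left out, 38% of members were called, against 15.3% of all genes: AURKA, BUB1B, CCNA2, CCNB2, CDC25C, CDC45, CDK1, CDK2, CDT1, CENPA, CENPE, CENPF, CHEK1, KIF11, KIF23, POLA1, PRC1, TOP2A and TYMS, each lower. CENPF was called in both, in opposite directions. The members' median difference in Huh7 was 0.08 without replicate 1, with 13 members negative, and -0.30 without replicate 3, with 43 negative. Each of these fits leaves a lone knockdown array in Huh7, which is assumed to vary like the other groups.

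Other values of the 2 arrays did not all move with the cycle genes. KLHL23 was at 5.78 on replicate 1 and 5.88 on replicate 3, and the RNA degradation measure from ACTB was 0.52 and 0.55. The hepatoma marker AFP was at 11.4 and 12.4, against 12.4 on each Huh7-shLuc array, so it was low on the same array as the cycle genes. AFP is 1 of 9 hepatocyte markers measured. Their summed log2 level also differed between the 2 knockdown arrays, from 107.3 to 111.2, against 107.5 to 107.9 on the Huh7-shLuc arrays. The SD of the replicate difference over all genes was 0.25 in Huh7-shKLHL23 and 0.222 in Hep-3B-shKLHL23, against 0.171 in Huh7-shLuc and 0.157 in Hep-3B-shLuc. What sets the 2 arrays apart was not tested.

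**Figure D3:**
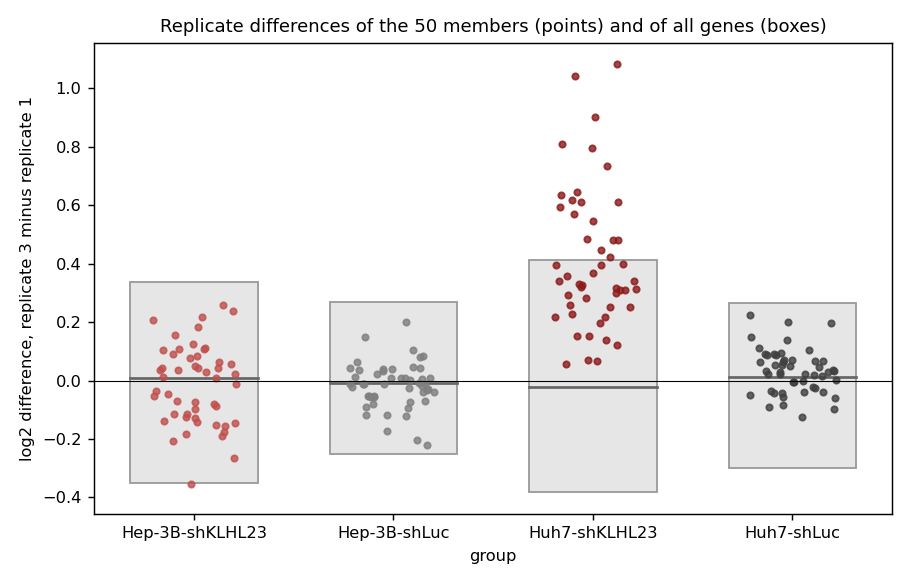
Log2 difference between replicate 3 and replicate 1 of each group for the 50 members (points), over a box from the 5th to the 95th percentile of all genes with a line at their median. All 50 points are above 0 in Huh7-shKLHL23, and 26, 21 and 34 are above 0 in Hep-3B-shKLHL23, Hep-3B-shLuc and Huh7-shLuc.

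**Figure D4:**
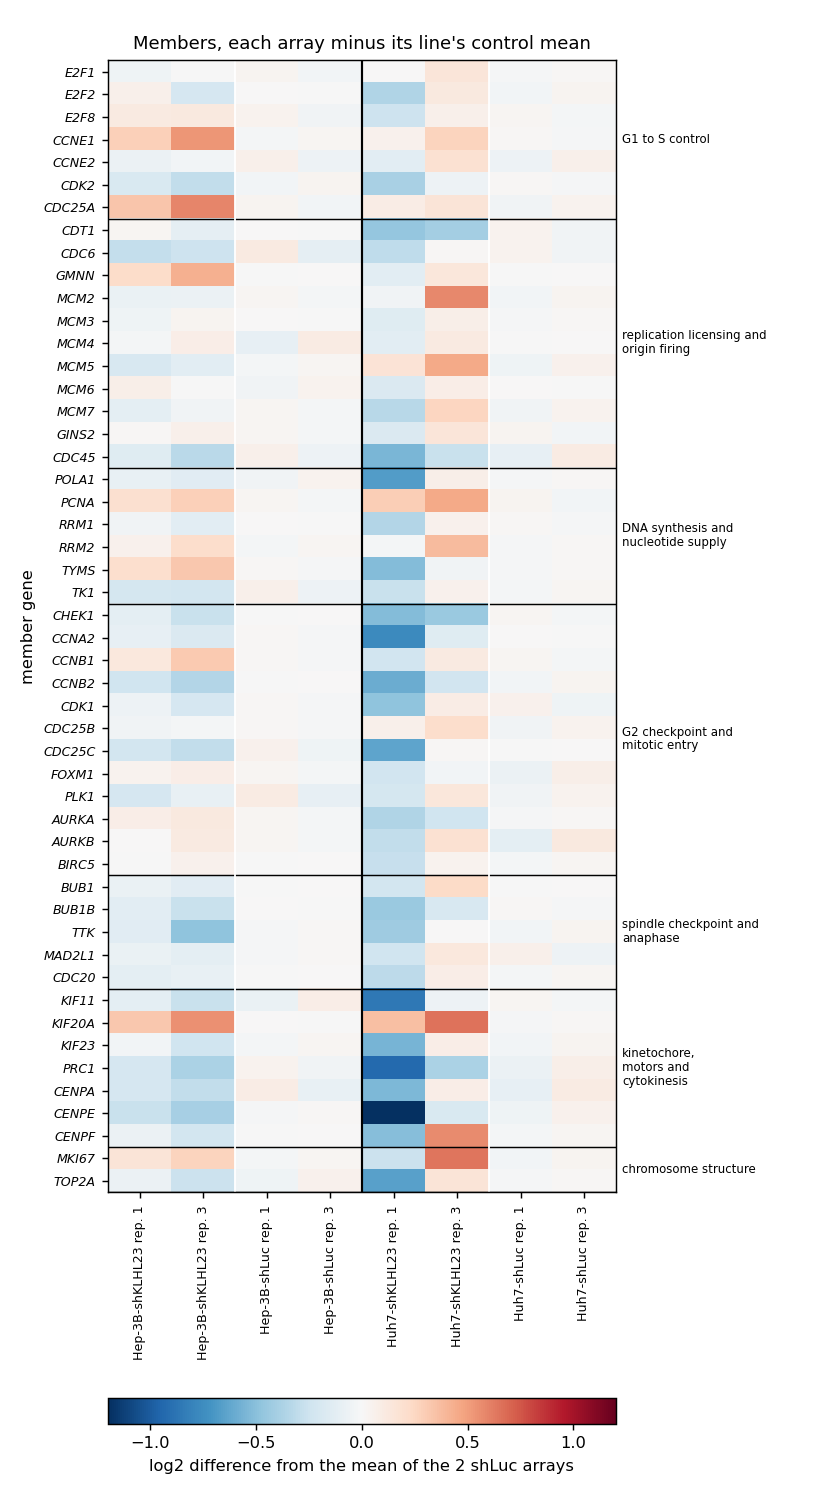
Log2 difference of each member (rows, by role) on each array (columns) from the mean of the 2 shLuc arrays of its line, from blue (lower) to red (higher). The column of Huh7-shKLHL23 replicate 1 is blue for most rows, at a median of -0.30, and that of replicate 3 is mixed, at 0.08.

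The wider pathway, 108 further genes chosen by role, of which 106 were measured, showed a like picture. In Hep-3B 0 were called (limma), where 0.693% of all genes were called. Below an unadjusted p of 0.05 were 18 of the 106, where 3491 of all 19775 genes were, a similar share. In Huh7 11 were called, 3 higher and 8 lower, or 10.4%, where 13.5% of all genes were called. Their median difference was -0.05 in Hep-3B and -0.12 in Huh7. In Huh7-shKLHL23, 89 of the 106 were higher in replicate 3 than in replicate 1, with a median gap of 0.32.

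Of the 9 CDK inhibitors and pocket proteins measured, CDKN1A rose. It encodes p21, which blocks the cyclin-dependent kinases of S phase entry, and was at 7.10 and 6.92 in Huh7-shKLHL23, against 6.07 and 5.87 in Huh7-shLuc. In Hep-3B it was at 10.65 and 11.06 with shKLHL23, against 10.14 and 10.15 with shLuc. In each line both knockdown arrays were above both controls, by 1.04 in Huh7 (SE 0.14, limma adjusted p = 0.00419) and 0.71 in Hep-3B (SE 0.14, limma adjusted p = 0.0676). CDKN1B, which encodes the related inhibitor p27, fell by 0.40 in Huh7 (SE 0.10, limma adjusted p = 0.0294) and was at -0.32 in Hep-3B, so the 2 inhibitors moved in opposite directions in Huh7.

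Of the 7 G1 cyclins and their kinases, CDK6, a cyclin D kinase, fell by 0.67 (SE 0.15, limma adjusted p = 0.0217) and CCNH, the cyclin of the CDK-activating kinase, fell by 0.57 (SE 0.13, limma adjusted p = 0.0247) in Huh7. CCND1, the gene of cyclin D1, was at 10.50 and 10.80 in Hep-3B-shKLHL23, against 10.24 and 10.18 in Hep-3B-shLuc, and at 10.21 and 10.27 in Huh7-shKLHL23, against 10.38 and 10.34 in Huh7-shLuc. Its knockdown arrays were clear of the controls on the higher side in Hep-3B and on the lower side in Huh7, by 0.44 (SE 0.11, limma adjusted p = 0.0986) and -0.12 (SE 0.11, limma adjusted p = 0.568). The difference between the lines was not called (-0.56, SE 0.16, limma adjusted p = 0.152).

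Of 12 other E2F, MYB and DREAM factors, E2F5, which partners the pocket proteins in repressing cycle genes, had the deepest fall of the pathway in Huh7 (-1.03, SE 0.12, limma adjusted p = 0.0021), and the E2F partner TFDP2 fell by 0.34 (SE 0.09, limma adjusted p = 0.0358). TFDP2 was at 0.30 and not called when probe sets that can cross-hybridise were left out and another one stood for it. Of 35 other origin and fork genes measured, ORC4 (-0.95, SE 0.14, limma adjusted p = 0.00533) and ORC5 (-0.44, SE 0.10, limma adjusted p = 0.0192), subunits of the origin recognition complex, and CDC7 (-0.63, SE 0.16, limma adjusted p = 0.0321), the kinase that fires origins, fell in Huh7. ORC5 was also the furthest from 0 of its list in Hep-3B, at -0.35 (SE 0.10, limma adjusted p = 0.111).

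Of 43 other mitotic genes, CDCA2, a phosphatase targeting subunit on chromatin, rose by 0.44 (SE 0.10, limma adjusted p = 0.0262) and CCNF, an F-box cyclin, rose by 0.42 (SE 0.11, limma adjusted p = 0.0375) in Huh7. WEE1, the kinase that holds CDK1 inactive, was furthest from 0 in Hep-3B at -0.51 (SE 0.11, limma adjusted p = 0.0746) and LIN54, the DNA-binding subunit of the DREAM complex, was at -0.58 there (SE 0.19, limma adjusted p = 0.164), with values on the knockdown arrays below the array medians. Over both lines 20 of the 106 genes were called, 6 higher and 14 lower, where 15.6% of all genes were called.

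More members were called between the control cells of the 2 lines than between knockdown and control. This comparison shares its control arrays with those above. Of the 50 members 20 were called between Huh7-shLuc and Hep-3B-shLuc, 40%, where 32.7% of all genes were called. In Huh7 18 were higher, where 17.7% of all genes were higher, and 2 were lower, where 14.9% were lower. By role the calls covered 6 of 7 G1 to S genes, 4 of 11 licensing genes and 2 of 6 DNA synthesis genes. They also covered 7 of 12 G2 and mitotic entry genes and 1 of 7 kinetochore, motor and cytokinesis genes. Of the 5 spindle checkpoint genes and the 2 chromosome structure genes 0 were called (limma, with 0 at an unadjusted p under 0.05 in each role). These calls are for the probe set that stood for each gene. In the last 2 roles another probe set was called for TOP2A (-0.53), MAD2L1 (0.56) and BUB1 (-0.44). Their limma adjusted p was 0.0352, 0.0377 and 0.0299 over all probe sets, and that of BUB1 has a mean of 3.31, below the array medians.

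The largest difference was that of a cyclin E gene. CCNE2 was at 7.17 and 7.28 in Huh7-shLuc, against 5.97 and 5.86 in Hep-3B-shLuc (1.31, SE 0.12, limma adjusted p = 4.97e-05). CCNE1 was at 7.88 and 7.85 in Huh7-shLuc, against 8.63 and 8.67 in Hep-3B-shLuc (-0.79, SE 0.11, limma adjusted p = 0.000743). The lines thus differed in opposite directions for the 2 cyclins that share a kinase, and that kinase, CDK2, was higher in Huh7 (0.77, SE 0.12, limma adjusted p = 0.00106).

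POLA1, the catalytic subunit of the polymerase that primes DNA synthesis, was at 9.11 and 9.15 in Huh7-shLuc, against 7.94 and 8.02 in Hep-3B-shLuc (1.15, SE 0.20, limma adjusted p = 0.00194). CDC25C, a phosphatase of mitotic entry, was at 8.31 and 8.33 in Huh7-shLuc, against 7.32 and 7.22 in Hep-3B-shLuc (1.05, SE 0.18, limma adjusted p = 0.00186). PLK1, the Polo kinase of mitosis, was at 7.91 and 8.0 in Huh7-shLuc, against 8.98 and 8.78 in Hep-3B-shLuc (-0.93, SE 0.13, limma adjusted p = 0.000662). None of these pairs of control groups overlapped.

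Higher in Huh7 were further MCM6 (0.90), E2F8 (0.77), RRM1 (0.71), FOXM1 (0.67), CDC25A (0.66), CDC45 and CDC25B (0.58 each), CDC6 (0.52), E2F1 (0.50), AURKB (0.49), MCM4 (0.43), KIF20A (0.42), AURKA (0.41) and CCNB1 (0.38). Of the 20 members 13 were called whichever array was left out. The other 7 were not called without 1 or more arrays. AURKA was not called without Hep-3B-shLuc replicate 3, CDC6 without that array or Huh7-shLuc replicate 1, CDC45 without that array or Huh7-shLuc replicate 3, and MCM4 without Hep-3B-shLuc replicate 1 or either Huh7-shLuc array. KIF20A was not called without any 1 of the 4 shLuc arrays, and CCNB1 and AURKB without any 1 of those or of the 2 Hep-3B-shKLHL23 arrays. The lowest values were then 0.38 for AURKA, 0.41 for CDC6, 0.49 for CDC45, 0.33 for MCM4, 0.41 for KIF20A, 0.36 for CCNB1 and 0.38 for AURKB.

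Of the 107 probe sets of the members 37 were called between the control lines, 32 higher and 5 lower, where 25.8% of all probe sets were called. They came from 28 members, some not called by the probe set that stood for them. Among these, another probe set gave 0.72 for RRM2, 0.61 for CCNA2 and 0.47 for MCM7 (limma adjusted p = 0.000825, 0.0134 and 0.033). Other probe sets of AURKA and CDC25C were read as well. Those next to the ones used gave 0.22 for AURKA and 0.91 for CDC25C (limma adjusted p = 0.201 and 0.00207 over all probe sets). The remaining probe set of each, with means of 4.16 and 3.15, lies below the array medians, so its difference near 0 says little about the gene. Beyond the members, CDKN1A was lower in Huh7-shLuc than in Hep-3B-shLuc (-4.18, SE 0.14, limma adjusted p = 1.87e-07). CCND2, the gene of cyclin D2, was at 3.15 and 3.02 in Huh7-shLuc, against 8.70 and 8.55 in Hep-3B-shLuc. Its Huh7 values are below the array medians, so the size of the difference is not given.

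**Figure D5:**
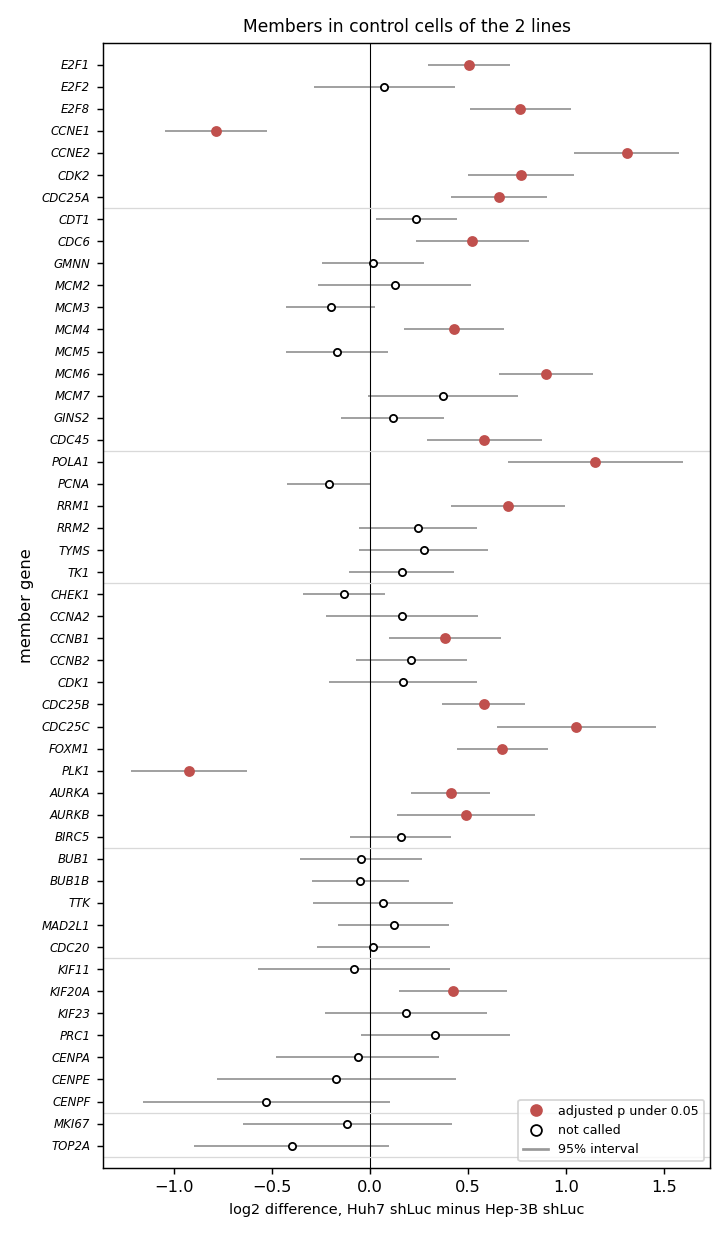
Log2 difference, Huh7-shLuc minus Hep-3B-shLuc, of each of the 50 members with 95% intervals from limma on 2 arrays per group, ordered by role. Filled points mark the 20 members called, 18 to the right of 0 (higher in Huh7) and CCNE1 and PLK1 to the left.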

How the data were processed

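Expression was measured on 8 one-colour Affymetrix arrays. The deposited values are log2 expression, which the authors made with the RMA method of Expression Console 1.2 (Affymetrix), per the submitters' processing notes. Other settings are not given in the sources used here. Of 54675 probe sets, 41097 were paired with 1 symbol, 1801 with several and 11777 were unnamed, which gave 19775 genes. No further normalization or filter was applied.

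Groups came from the labels. All 8 arrays were fitted with limma 3.58.1 in R 4.3.3 (lmFit and eBayes, 4 group means), with Benjamini-Hochberg adjustment over all genes and a threshold of 0.05. Contrasts were the knockdown difference in each line, its mean over both, its difference between them, and control Huh7 minus control Hep-3B. The 4 residual degrees of freedom limit the precision. On simulated data for the Huh7 comparison over 19775 genes, the test recovered 47.8% of the genes given a 1.5-fold change and 76.1% at 2-fold. The simulation changed 200 genes, where 2666 were called in the data, and gave all groups the same spread for a gene. Its shares may thus not hold for the data.

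The members and gene lists were chosen with earlier results of these data known. Per-array values are given for members called in a knockdown comparison and for the member furthest from 0 in each role and line, and of other lists for up to 3 called genes in each direction. CCNB1, CDC25C, PLK1, CCNE2, POLA1, CENPF, CCND2 and further genes outside that rule were named after their values were seen. Alternatives covered scaling, a low-value filter, the choice of probe set, the variance model, a line fitted alone, the replicate number as a block, and each array left out in turn.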

Additional observations from a re-analysis of the deposited data

How the results depend on the processing

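With 2 arrays in each group, counts of members called moved readily. Leaving out 1 array at a time gave 0 to 1 calls in Hep-3B, 0 to 19 in Huh7, 1 to 23 over both lines, 0 to 2 for the difference between lines and 14 to 25 between control lines. The intensity trend with robust moderation gave 1 call in Hep-3B and 9 in Huh7, array weights gave 1 in Hep-3B, and the line fitted alone gave 1 in Huh7. Without probe sets ending in _x_at or _s_at 38 members could be tested, with 3 calls in Huh7 and 5 over both lines. CDT1, PRC1 and CDC45 have only probe sets with such endings and were not tested there. CCNE1 was not called over both lines (limma adjusted p = 0.0548). With all probe sets tested there were 5 calls over both lines. Of members' knockdown differences, 21 of 888 in Hep-3B and 52 of 888 in Huh7 had the other sign under an alternative. Values called with all arrays or under the alternative turned in 4 cases. CENPF, not called with all arrays, was at -0.51 in Huh7 (limma adjusted p = 0.0213) without Huh7-shKLHL23 replicate 3 and at 0.57 without replicate 1. Without those probe sets, TFDP2 in Huh7 was at 0.30, and between control lines CDC25C was at -0.018 and AURKA at -0.000995, because another probe set stood for each (for CDC25C and AURKA, one below the array medians). For the other moves the cause was not tested. The labels do not say whether the replicate numbers pair the samples. Over all genes, deviations of same-numbered arrays correlated at -0.07 in Hep-3B and 0.06 in Huh7. No shared shift was seen, but these values cannot show whether the samples were paired. With the replicate block, calls numbered 0 in Hep-3B, 6 in Huh7, 7 over both lines, 0 for the difference between lines and 15 between control lines. PCNA was then not called in Huh7 while CDC45 and CENPE were, and over both lines CCNE1, CDC25A and CDT1 were not called while CENPE was. Over all single genes and alternatives, 4313 values kept their direction and side of the threshold. A call was lost in 173 and gained in 90, and 199 changed sign without being called in either fit.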
